A study of Mus musculus with 8 samples.

Results

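Transcripts of the enzymes of glycolysis and of the tricarboxylic acid (TCA) cycle were examined in small-intestinal RNA from C57BL/6J Min/+ mice, which carry the Min mutation in the tumour suppressor gene Apc in every group, controls included. The 38 genes were taken from a list of the 2 pathways, and each was found through the accession of its probe among 21319 genes tested. They comprise 22 genes of glycolysis (17 enzymes, 3 Pfkfb regulators and 2 transporters) and 16 genes of TCA cycle reactions. All 38 were well above background on all 8 arrays. Males and females had been fed either the semisynthetic AIN-93G control diet or a Western-type diet in which milk fat made up 66.4% and plant oils 33.6% of the fat. Each of the 4 groups of diet and sex has 2 single-colour arrays, named here Control male 1 and 2, Control female 1 and 2, Western male 1 and 2, and Western female 1 and 2. Each array was hybridised with RNA of 1 to 3 mice, and the labels give the feeding as 18 months without stating an age. Values are log2 signals relative to the 75th percentile of their array, so 1 unit is a doubling. Differences are given ± standard error (SE), with p-values from limma adjusted by the Benjamini-Hochberg method over all genes tested. Nothing in the labels ties replicate arrays to separate mice, so errors and p-values cover array-to-array spread alone, part of which may be technical.

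Glycolysis splits glucose into pyruvate in the cytosol. Hexokinase traps glucose, phosphofructokinase commits it to the pathway under the control of the Pfkfb enzymes, and lactate dehydrogenase turns pyruvate into lactate, which leaves the cell through the Slc16 transporters. The TCA cycle oxidises acetyl-CoA in mitochondria, and isoforms of some of its enzymes work in the cytosol. In the small intestine the enterocytes draw much of their fuel from glutamine, which enters the cycle at 2-oxoglutarate. Many glycolytic genes are also known targets of hypoxia-inducible factor, which often binds DNA at a core of the letters ACGTG. Several genes exist as isoforms whose use differs between tissues, and Gapdh, Ldha, Pkm and Eno1 have processed copies in the genome with which a probe can share sequence.

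Some libraries stood apart. The library labelled Control female 1 carried the Y-linked transcripts Ddx3y at -0.46 and Eif2s3y at 1.90, at the level of the male arrays, whereas the other female arrays lay between -7.57 and -6.91 for Ddx3y. Malic enzyme Me1 measured 3.37 there, within the 1.17 to 3.88 of the Western arrays and above the -1.71 to -0.71 of the other controls. Results that rest on this library are therefore also given without it. On Control female 2, 75.67% of probes were well above background, against 55.14% to 61.92% on the other arrays. The array 75th percentile lay between 488.2 (Control female 2) and 907.1 (Western male 1) units of raw signal. Slide 1 held replicate 1 of every group, slide 2 held Western male 2 alone and slide 3 held the other arrays of replicate 2. Of other tissues, all 10 smooth muscle markers were measured, with a summed log2 signal of 5.68 on Control male 1 against 2.84 to 4.43 elsewhere. The 8 fibroblast markers summed to 3.84 on Control male 1 against 0.25 to 1.94 elsewhere. The 5 measured of 7 fat cell markers summed to 5.21 on Western female 2 against 2.62 to 4.03. The 5 measured of 7 erythrocyte markers summed to between 4.03 (Control female 2) and 7.22 (Western male 1). The 13 enterocyte markers summed to between 10.76 and 11.46 on all arrays, so the markers of the labelled tissue were present throughout. In such bulk RNA, fewer cells of a type and less RNA per cell cannot be told apart.

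The 22 genes of glycolysis were spread mainly between single arrays. Each gene was set against its own mean over the 8 arrays. The median deviation of the glycolysis genes was 0.40 on Control male 2 and 0.21 on Western male 2, and it was -0.28 on Western female 2, -0.17 on Control male 1 and -0.16 on the library labelled Control female 1. The remaining arrays lay between -0.07 and 0.11. The medians of the 16 TCA genes stayed between -0.15 (Western male 1) and 0.09 (Western female 1). Over the 8 arrays a glycolysis gene spanned a median range of 1 log2 unit, a TCA gene 0.67 and any gene 0.97, with single ranges of 0.45 to 3.52 for glycolysis and 0.25 to 1.34 for the TCA cycle. The SD between replicate arrays of these list medians was 0.244 for glycolysis and 0.07 for the TCA cycle.

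**Figure D1:**
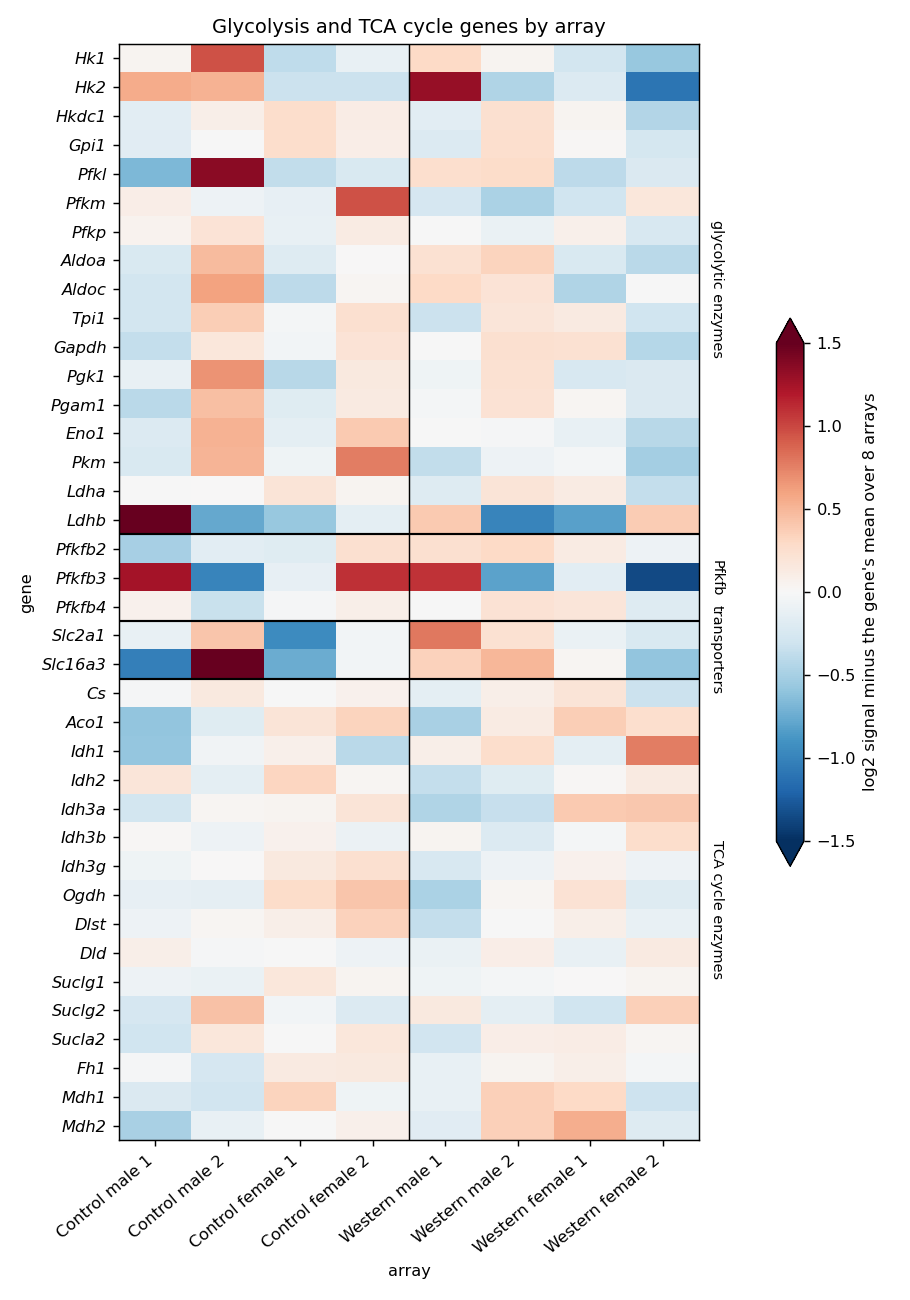
Deviation of each of the 38 genes (rows) from its own mean over 8 arrays (columns), in log2 units, red above and blue below the mean; values past 1.5 are drawn in the end colours. The vertical line separates the diets and horizontal lines separate the roles. Many glycolytic genes are red on Control male 2 and blue on Western female 2, while the TCA rows are paler throughout.

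Control male 2 held the highest of the 8 values for 10 of the 22 glycolysis genes and for 2 of the 16 TCA genes, while 8.31% of all genes were highest there. The glycolysis genes were Hk1, Pfkl, Pfkp, Aldoa, Aldoc, Tpi1, Pgk1, Pgam1, Eno1 and Slc16a3. Western female 2 held the lowest value for 11 of the 22 glycolysis genes and 2 of the 16 TCA genes, against 17.6% of all genes. Both arrays lay on slide 3. Of 10 targets of hypoxia-inducible factor outside the pathways (Vegfa, Car9, Ankrd37, Egln3, Bnip3, Adm, Ndrg1, P4ha1, Ddit4 and Egln1), 9 were highest on Control male 2, where their median deviation was 0.73, and 2 of the 10 were lowest on Western female 2, against the 17.6% of all genes. On the other arrays that median lay between -0.43 and 0.22. The part of the hypoxia response in the glycolysis values was not tested.

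**Figure D2:**
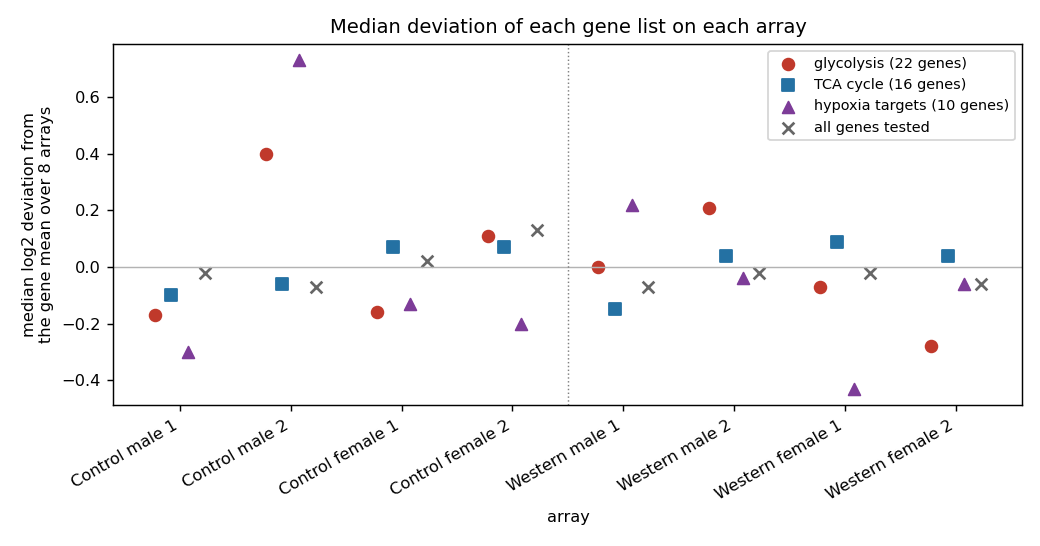
Median log2 deviation from the gene mean (vertical axis) on each array (horizontal axis) for 22 glycolysis genes, 16 TCA genes, 10 hypoxia targets and all genes tested; the dotted line separates control from Western arrays. Glycolysis (0.40) and hypoxia targets (0.73) are highest on Control male 2, and the TCA medians stay between -0.15 and 0.09.

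The promoters of 4 glycolysis genes are printed because their letters can be set beside the values on Control male 2. Each is the 250 bases before an annotated start of the gene in RefSeq (GRCm38.p6), 5′ to 3′ on the strand of the gene, with every ACGTG and its reverse complement CACGT in capitals. Slc16a3, the lactate exporter that deviated most there (1.53), lies at chr11:120948817-120949066 on the plus strand, and Pgk1, which makes the first ATP of glycolysis (0.67), at chrX:106186850-106187099 on the plus strand. Ldha (0.01) lies at chr7:46845554-46845803 on the plus strand and Pfkl (1.36) at chr10:78009808-78010057 on the minus strand.
Slc16a3: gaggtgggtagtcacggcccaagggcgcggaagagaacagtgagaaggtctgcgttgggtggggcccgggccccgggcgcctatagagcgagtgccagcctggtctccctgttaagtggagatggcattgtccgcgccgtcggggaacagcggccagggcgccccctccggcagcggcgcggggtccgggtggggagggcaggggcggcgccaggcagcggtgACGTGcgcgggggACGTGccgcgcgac
Pgk1: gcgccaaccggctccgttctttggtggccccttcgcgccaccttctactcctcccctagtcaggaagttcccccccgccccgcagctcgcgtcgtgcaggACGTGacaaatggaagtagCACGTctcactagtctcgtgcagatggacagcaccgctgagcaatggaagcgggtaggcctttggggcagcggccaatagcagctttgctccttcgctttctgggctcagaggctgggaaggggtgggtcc
Ldha: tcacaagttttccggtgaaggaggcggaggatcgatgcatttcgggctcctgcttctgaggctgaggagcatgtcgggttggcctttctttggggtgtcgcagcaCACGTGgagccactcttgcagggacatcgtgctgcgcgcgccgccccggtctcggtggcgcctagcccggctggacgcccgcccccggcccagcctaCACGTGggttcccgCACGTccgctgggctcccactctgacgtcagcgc
Pfkl: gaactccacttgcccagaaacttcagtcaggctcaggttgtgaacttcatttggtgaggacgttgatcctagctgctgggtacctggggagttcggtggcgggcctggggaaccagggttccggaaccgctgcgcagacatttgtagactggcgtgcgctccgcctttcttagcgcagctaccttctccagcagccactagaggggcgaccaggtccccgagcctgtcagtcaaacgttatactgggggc
The motif occurs 2 times in the window of Slc16a3, 2 times in that of Pgk1 and 5 times in that of Ldha, where CACGTG counts once on each strand. It does not occur in the window of Pfkl. Of these 4 genes Ldha holds the most matches to ACGTG, with a deviation of 0.01 on Control male 2. Pfkl holds no match to these letters, with a deviation of 1.36. Other forms of the core were not searched for. Over all windows of a gene, reaching from 250 bases before its start to 50 after, ACGTG on either strand was found for 14 of 22 glycolysis genes (63.6%), 3 of 15 TCA genes with a window (20.0%; Idh3g, Ogdh and Mdh1), 8 of 9 hypoxia targets and 21.8% of all 27025 genes. A gene can have several windows. Counted by window, 18 of 36 glycolysis windows (50%) and 8 of 21 TCA windows (38.1%) held it, against 19.6% of 32851 windows of all genes. The glycolysis windows (median GC content 60.0%) were like the TCA windows (60.3%) in base composition, and richer in GC than all windows (52.7%). The 14 glycolysis genes with the motif had a median deviation of 0.46 on Control male 2 (from -0.99 to 1.53). The 8 without it had a median of 0.14 (from -0.77 to 1.36), so the ranges overlap widely. Control male 2 is a single array, the one with the highest glycolysis and hypoxia target medians. The split by motif was not made on any other array. A match describes these letters only and is not evidence of binding.

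The first comparison of the study is Western against control diet. None of the 38 genes passed the test: 0 had an adjusted p under 0.05 in limma and 0 an unadjusted p under 0.05, where 4.35% of all genes had the latter and 0 of all genes the former. The Western and control arrays overlapped for all 38 genes, and 3.18% of all genes had no overlap. The median diet difference (Western minus control) was -0.126 for glycolysis, with 16 of 22 genes lower, and -0.004 for the TCA cycle, with 9 of 16 lower. The median of all genes was -0.062, with 39.8% higher. Under quantile normalization the median of all genes moved to 0.038, and glycolysis kept 16 of 22 genes lower with a median of -0.144. The median of glycolysis lay between -0.209 and -0.014 when 1 array was left out. It was -0.014 without Control male 2, with 11 of the 22 genes lower. Without Western male 1 it was -0.029, with 14 lower, and without Western female 2 it was -0.038, with 13 lower, so in these 3 cases the median lay above that of all genes (-0.074, -0.057 and -0.056). Without the library labelled Control female 1, 19 of 22 glycolysis and 8 of 16 TCA genes were lower, and still 0 members had no overlap, where 2.12% of all genes were higher and 3.86% lower on every Western array. Pfkm (-0.69 ± 0.21) and Pkm (-0.70 ± 0.27) then had an unadjusted p under 0.05, where 15% of all genes did, and their limma adjusted p was 0.204 and 0.322. Markers of other cells also differed between the diets. All 10 smooth muscle markers (median -1.081) and all 7 measured of 10 neuron and glia markers (-0.344) were lower on the Western diet. All 5 measured of 7 erythrocyte markers were higher (1.378). The smooth muscle median was -2.125 in males, and in females it was -0.072 with 4 of 10 markers higher. The median deviation of these 10 markers was 3.72 on Control male 1 and between -1.68 and 0.08 on the other arrays. The part of these cell types in the diet values was not tested.

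Within the sexes no member passed the test either. In males 11 of 22 glycolysis genes were higher and 11 lower on the Western diet, and in females 3 were higher and 19 lower, when 47.8% and 36.5% of all genes were higher. These counts moved with single arrays. In males 6 were higher and 16 lower without Control male 1, and 17 higher and 5 lower without Control male 2. In females 11 were higher and 11 lower without Control female 2, 10 higher and 12 lower without Western female 2, and 0 higher and 22 lower without the library labelled Control female 1. Of the 13 enterocyte markers, 11 were lower and 2 higher on the Western diet in females (median -0.075). In males 7 were lower and 6 higher. The median deviation of these markers was lowest on Western female 2 (-0.37). Of 6 goblet cell markers, 5 were lower in females and 4 in males. The part of these cell types in the glycolysis counts was not tested. No member had an unadjusted p under 0.05 in males (background 1.3%), in females (5.14%) or for the difference between the sexes in the diet effect (1.62%). The counts at an adjusted p under 0.05 were also 0. Without the library labelled Control female 1, limma called 397 genes in females, none of them among the 38, with Control female 2 then the only control female and assumed to vary like the other groups.

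**Figure D3:**
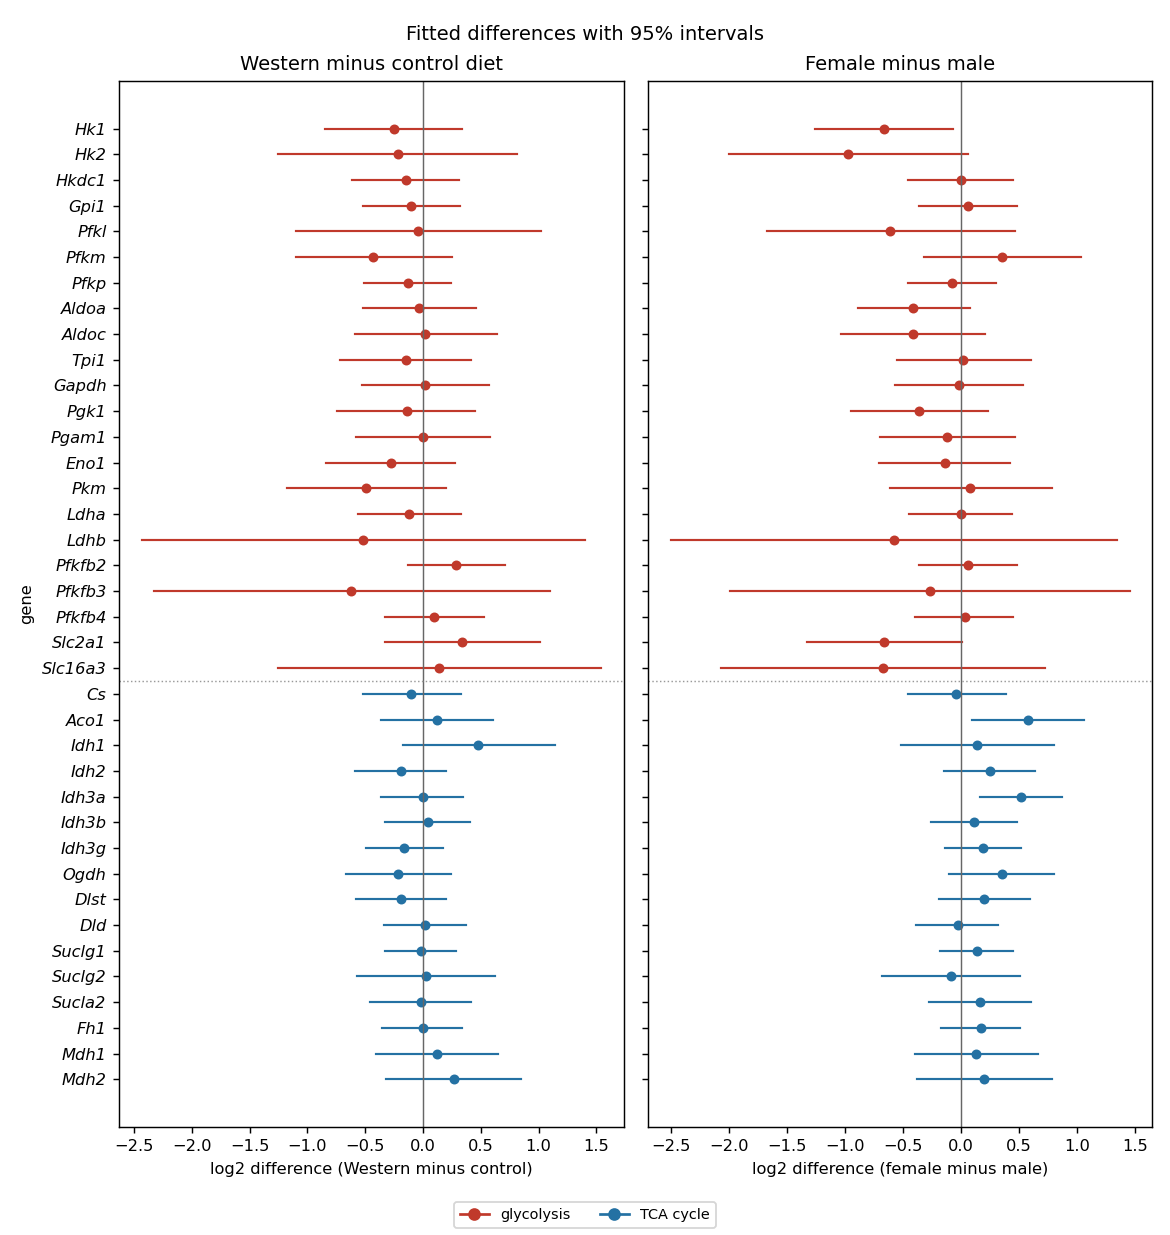
Fitted log2 differences (horizontal axis) for the 38 genes (rows), Western minus control diet on the left and female minus male on the right; points are estimates and bars 95% intervals. All diet intervals span 0; on the right those of Hk1, Aco1 and Idh3a do not, before adjustment for the number of genes.

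The genes are taken in the order of the pathway. Glucose enters through Slc2a1 (GLUT1) and is phosphorylated by the hexokinases. Slc2a1 measured 1.21 and 1.74 in Control males, 0.38 and 1.28 in Control females, 2.11 and 1.55 in Western males, and 1.22 and 1.10 in Western females. The highest value was on Western male 1 and the lowest on the library labelled Control female 1. The diet difference was 0.34 ± 0.27 (95% interval -0.33 to 1.01, limma adjusted p 0.994), and 0.12 ± 0.25 without that library. Hk1, the widely expressed hexokinase, measured 0.76 and 1.67 in Control males, 0.33 and 0.60 in Control females, 1.01 and 0.75 in Western males, and 0.44 and 0.15 in Western females. Hk2, the insulin- and hypoxia-regulated isoform, measured 1.86 and 1.82 in Control males, 0.98 and 0.98 in Control females, 2.61 and 0.85 in Western males, and 1.10 and 0.20 in Western females. Both were spread more within a diet than between the diets. Their diet differences were -0.25 ± 0.24 and -0.22 ± 0.42. Hkdc1, a hexokinase-related enzyme known in the gut, varied little (5.50 to 6.20, difference -0.15 ± 0.19), as did glucose-6-phosphate isomerase Gpi1 (6.31 to 6.84, -0.10 ± 0.17).

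Phosphofructokinase has a liver, a muscle and a platelet isoform. Pfkl, the liver isoform, measured 0.18 and 2.21 in Control males, 0.48 and 0.62 in Control females, 1.10 and 1.13 in Western males, and 0.46 and 0.64 in Western females. It was 2.21 on Control male 2 and at most 1.13 on any other array. The diet difference was -0.04 ± 0.43, and it turned from -0.55 ± 0.16 without Control male 1 to 0.46 ± 0.16 without Control male 2, so its sign rested on which control male was kept. Pfkm, the muscle isoform, measured -1.94 and -2.12 in Control males, -2.16 and -1.09 in Control females, -2.29 and -2.52 in Western males, and -2.34 and -1.87 in Western females. Control female 2 stood above the rest, and the difference was -0.43 ± 0.28 (95% interval -1.10 to 0.25). Within slide 1 the difference of Pfkm was -0.27 and within the females of slide 3 it was -0.78. Pfkp, the platelet isoform, kept between 2.91 and 3.35, with a difference of -0.13 ± 0.15.

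The Pfkfb enzymes make and remove fructose 2,6-bisphosphate, the activator of phosphofructokinase. Pfkfb2 measured -2.72 and -2.38 in Control males, -2.40 and -1.98 in Control females, -1.98 and -1.93 in Western males, and -2.10 and -2.30 in Western females. In males both Western values lay above both controls, by 0.59 ± 0.24 (95% interval 0.00 to 1.19, limma p 0.0505, adjusted p 1), and in females the values overlapped. The difference between the sexes in this effect was -0.60 ± 0.34 (adjusted p 1). Pfkfb3, the inducible isoform, measured 1.74 and -0.50 in Control males, 0.37 and 1.59 in Control females, 1.57 and -0.31 in Western males, and 0.33 and -0.86 in Western females. It ranged over more than 2 units within each diet, with a diet difference of -0.62 ± 0.70 (95% interval -2.33 to 1.10). Pfkfb4 stayed between 3.27 and 3.82, with a difference of 0.10 ± 0.18.

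**Figure D4:**
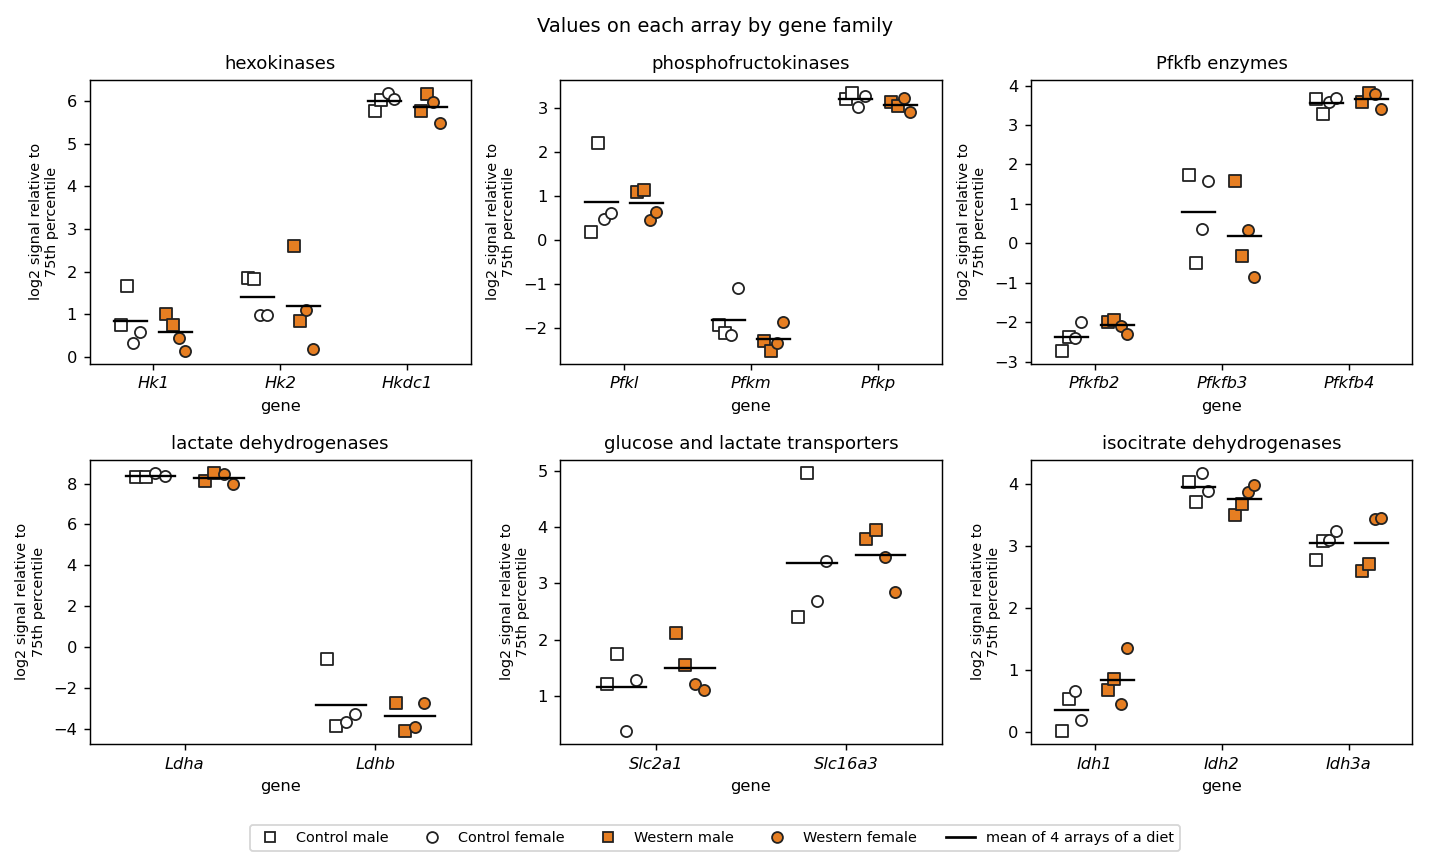
Log2 signal relative to the array 75th percentile (vertical axis) for the isoforms of 6 gene families (horizontal axis), with squares for males, circles for females, open symbols for control and filled for Western diet; bars are means of the 4 arrays of a diet. Diets overlap for every gene, Pfkl and Slc16a3 are highest on Control male 2, and Ldhb stands high on Control male 1; the heights of different genes come from different probes and are not compared.

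The steps from aldolase to pyruvate kinase carry the sugar phosphates down to pyruvate. Aldoa, the aldolase of muscle and most cells, measured 6.18 and 6.89 in Control males, 6.22 and 6.42 in Control females, 6.64 and 6.75 in Western males, and 6.18 and 6.01 in Western females. Aldoc, the brain isoform, ranged from 1.68 to 2.73. Their diet differences were -0.03 ± 0.20 and 0.02 ± 0.25. Triose phosphate isomerase Tpi1 (-0.15 ± 0.23), phosphoglycerate kinase Pgk1 (-0.14 ± 0.24) and phosphoglycerate mutase Pgam1 (0.00 ± 0.24) also had intervals on both sides of 0. Enolase Eno1 measured 5.45 and 6.17 in Control males, 5.51 and 6.04 in Control females, 5.64 and 5.63 in Western males, and 5.54 and 5.23 in Western females. Both high values were on slide 3, and the difference of Eno1 was -0.28 ± 0.23 (95% interval -0.84 to 0.28). Gapdh, often used as a reference gene, differed by 0.02 ± 0.22 at its brightest probe. Its other 6 probes gave -0.35 to -0.18, and on all 7 probes Control male 2 lay above Control male 1.

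Pyruvate kinase Pkm, which makes pyruvate and ATP, measured 3.60 and 4.34 in Control males, 3.77 and 4.60 in Control females, 3.46 and 3.76 in Western males, and 3.80 and 3.32 in Western females. The pair of high values were controls of slide 3, and the other controls lay among the Western values. The diet difference was -0.49 ± 0.28 (95% interval -1.18 to 0.20, limma adjusted p 0.994). It was -0.05 within slide 1 and -1.28 within the females of slide 3. With slide as a block it was -0.48 ± 0.35. Under quantile normalization all 4 Western values of Pkm lay below all 4 controls and all 4 of Pfkfb2 lay above, the only such members under that setting.

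Lactate dehydrogenase has a muscle subunit, Ldha, and a heart subunit, Ldhb. Ldha measured 8.32 and 8.33 in Control males, 8.52 and 8.36 in Control females, 8.13 and 8.51 in Western males, and 8.45 and 7.96 in Western females. It was among the steadiest members, with a diet difference of -0.12 ± 0.18, and its other 2 probes gave -0.30 and -0.33. Ldhb measured -0.61 and -3.90 in Control males, -3.70 and -3.27 in Control females, -2.73 and -4.12 in Western males, and -3.94 and -2.75 in Western females. Control male 1 was the one array above -2.73, and it was also the array with the most smooth muscle and fibroblast signal. Their part in the value was not tested. The diet difference of Ldhb was -0.52 ± 0.78 with all arrays and 0.31 ± 0.50 without Control male 1. Slc16a3 (MCT4), which exports lactate from glycolytic cells, measured 2.41 and 4.96 in Control males, 2.69 and 3.40 in Control females, 3.78 and 3.94 in Western males, and 3.47 and 2.84 in Western females. Control males held both the lowest and the highest value. The diet difference of Slc16a3 was 0.14 ± 0.57 (95% interval -1.25 to 1.54), and a second probe followed the first on every array (4.78 on Control male 2, 2.32 on Control male 1).

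The TCA genes were steadier. Citrate synthase Cs, which starts the cycle, lay between 7.20 and 7.71 (diet difference -0.10 ± 0.17). Aco1 is the cytosolic aconitase, which doubles as an iron sensor, and Idh1 is the cytosolic, NADP-dependent isocitrate dehydrogenase, so neither acts in the mitochondrial cycle itself. Idh1 measured 0.01 and 0.53 in Control males, 0.66 and 0.18 in Control females, 0.67 and 0.85 in Western males, and 0.44 and 1.35 in Western females. Western female 2 was highest and Control male 1 lowest, with the rest mixed. The diet difference of Idh1 was 0.48 ± 0.27 (95% interval -0.17 to 1.14, limma adjusted p 0.994), the smallest diet p of the 38 genes (unadjusted p 0.122). It was 0.22 within slide 1 and 1.17 within the females of slide 3, where Western female 2 also had the most fat cell signal. The part of fat cells in it was not tested.

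Idh2, the mitochondrial NADP-dependent enzyme, differed by -0.19 ± 0.16. Idh3a, Idh3b and Idh3g encode the NAD-dependent enzyme of the cycle, and their diet differences were 0.00 ± 0.15, 0.04 ± 0.15 and -0.16 ± 0.14. For the 2-oxoglutarate dehydrogenase complex, Ogdh differed by -0.22 ± 0.18, Dlst by -0.19 ± 0.16 and Dld, which other dehydrogenase complexes share, by 0.02 ± 0.14. Succinyl-CoA ligase has a common subunit, Suclg1 (-0.02 ± 0.13), and a GTP-forming (Suclg2, 0.03 ± 0.24) and an ATP-forming partner (Sucla2, -0.02 ± 0.18). Fumarase Fh1 differed by 0.00 ± 0.14. Malate dehydrogenase differed by 0.12 ± 0.22 in its cytosolic (Mdh1) and 0.27 ± 0.24 in its mitochondrial form (Mdh2). The 95% interval of Suclg1 was -0.33 to 0.29, the narrowest of the 38 diet intervals.

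The second comparison is females against males, averaged over the diets. No gene had an adjusted p under 0.05 in limma, and 3.86% of all genes had an unadjusted p under 0.05. Among the 38 genes 3 did, with Idh3a (0.52 ± 0.15) and Aco1 (0.58 ± 0.20) higher in females, where 2.69% of all genes were, and Hk1 (-0.66 ± 0.24) lower, where 1.17% were (limma adjusted p 0.903 for each). Glycolysis leaned lower in females, with 16 of 22 genes and a median of -0.132, and the TCA cycle leaned higher, with 13 of 16 genes and a median of 0.163. Of all genes 62.5% were higher in females, with a median of 0.076. Under quantile normalization the median of all genes was -0.021, with 18 of 22 glycolysis genes lower and 13 of 16 TCA genes higher. All 10 hypoxia targets were lower in females, and 7 of 10 without Control male 2. When 1 array was left out, 12 to 20 of the 22 glycolysis genes were lower in females. The count was 12 (median -0.039) without Control male 2, 12 (-0.031) without Western female 2, 13 (-0.125) without Western male 2 and 14 (-0.04) without the library labelled Control female 1. The TCA count was 13 to 15 of 16 when any one array was left out. In females all 8 fibroblast markers (median -0.913) and all 5 measured erythrocyte markers (-1.114) were also lower. On the Western diet alone 5 of the 8 fibroblast markers were higher in females (median 0.192), and the erythrocyte median was -0.157. The median deviation of the fibroblast markers was 2.48 on Control male 1 and between -0.95 and 0.73 on the other arrays. The part of these cell types in the sex values was not tested.

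Idh3a, the catalytic subunit of the NAD-dependent isocitrate dehydrogenase, measured 2.77 and 3.08 in Control males, 3.09 and 3.24 in Control females, 2.59 and 2.70 in Western males, and 3.44 and 3.45 in Western females. All 4 female values lay above all 4 male values, by the narrowest margin between Control male 2 and the library labelled Control female 1. The sex difference was 0.52 ± 0.15 (1.43-fold, 95% interval 0.16 to 0.87, limma p 0.0119, adjusted p 0.903). It was 0.58 within slide 1 and 0.16 between the controls of slide 3. Without the library labelled Control female 1 it was 0.56 ± 0.18 (adjusted p 0.262), and the unadjusted limma p stayed between 0.0133 and 0.0424 when any one array was left out. On the Western diet alone the difference of Idh3a was 0.80 ± 0.21 (1.74-fold, 95% interval 0.29 to 1.3, limma p 0.00823, adjusted p 1), the only member of the 38 with an unadjusted p under 0.05 there, against 1.34% of all genes.

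Aco1 measured -2.24 and -1.83 in Control males, -1.45 and -1.32 in Control females, -2.14 and -1.53 in Western males, and -1.28 and -1.40 in Western females. All 4 females lay above all 4 males, and the closest pair was Western male 2 and the library labelled Control female 1. The sex difference was 0.58 ± 0.20 (95% interval 0.09 to 1.06, limma p 0.0280). For Aco1 the unadjusted p stayed under 0.05 in 3 of the 8 fits that left out 1 array, with a highest limma p of 0.085 without Control male 1. The difference was 0.83 within slide 1 and 0.51 between the controls of slide 3. Suclg1 also had no overlap, with females from 5.17 to 5.34 and males from 5.07 to 5.14, for a difference of 0.14 ± 0.13. These 3 genes were the members with all females above all males, where 2.01% of all genes were so arranged. Without the library labelled Control female 1 they were Aco1, Idh3a and Suclg1 again, against 3.65% of all genes.

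Hk1 was the 1 member with all females below all males, against 1.02% of all genes, and again without the library labelled Control female 1 (2.05%). Its sex difference was -0.66 ± 0.24 (95% interval -1.26 to -0.07, limma p 0.0343). For Hk1 the unadjusted p stayed under 0.05 in 2 of the 8 fits that left out 1 array. The sex difference of Hk1 was -0.60 ± 0.29 (limma p 0.0864) without the library labelled Control female 1 and -0.44 ± 0.19 (limma p 0.0719) without Control male 2. Within slide 1 it was -0.50, and it was -1.06 between the controls of slide 3. A second, dimmer probe of Hk1 did not show it: females ranged from -2.62 to -1.96 and males from -2.47 to -2.08, a difference of 0.04. Male and female values overlapped for Hk2 (-0.97 ± 0.42, 95% interval -2.0 to 0.06), Slc2a1 (-0.66 ± 0.27, -1.33 to 0.01) and Slc16a3 (-0.67 ± 0.57). On the Western diet 20 of 22 glycolysis genes were lower in females (median -0.238) and 14 of 16 TCA genes higher (0.142), with 53.5% of all genes higher. Without Western female 2 the glycolysis count was 14 of 22, and without Western male 1 the TCA count was 8 of 16.

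Other genes of the pathways were read from a list of 38, of which 34 were measured (20 of 22 of glycolysis and 14 of 16 of the TCA cycle and its branches). For the diet, 0 had an adjusted p and 2 an unadjusted p under 0.05, both lower on the Western diet, against 3.72% of all genes lower. Slc16a1, Ldhc, Pklr and the mitochondrial glycerol phosphate dehydrogenase Gpd2 had all Western values below all controls, as did 2.35% of all genes. Slc16a1, Ldhc and Pklr were highest on Control female 2, and Gpd2 on the library labelled Control female 1. Control female 2 held the highest value for 14 of the 34 genes and for 31.9% of all genes. The part of that array in these differences was not tested. Slc16a1 (MCT1), which carries lactate, pyruvate and short-chain acids, measured -3.32, -3.58, -3.32 and -2.65 on the control arrays and -3.78, -3.68, -3.65 and -3.75 on the Western arrays. The highest Western value lay close to the lower controls, and the difference of Slc16a1 was -0.49 ± 0.20 (limma adjusted p 0.994). Ldhc, the testis isoform, was dim (-5.24 to -2.45), and its difference of -1.16 ± 0.46 had its highest value on Control female 2.

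In the isoforms of the families above, the diet differences were -0.29 ± 0.14 for Pklr, the liver pyruvate kinase, and -0.22 ± 0.23 for muscle enolase Eno3. Pklr measured 0.37, 0.40, 0.46 and 0.78 on the control arrays and 0.17, 0.20, 0.19 and 0.30 on the Western arrays, where the gap between the diets was small. Pck1, which leads from oxaloacetate back to glucose, differed by 1.36 ± 0.61 (95% interval -0.14 to 2.86), with the lowest value on Control male 1 (1.06) and the highest on Western male 1 (4.23). Me1, which turns malate into pyruvate and NADPH, differed by 2.66 ± 1.15 (95% interval -0.16 to 5.47), for the values given above, in which the library labelled Control female 1 lay with the Western arrays. Without that library the difference of Me1 was 3.82 ± 0.77, and without Control female 2 it was 1.49 ± 0.77. Me1 was one of the values that set that library apart. The larger difference without it therefore follows from that choice and is no separate support for a diet effect. Neither Pklr nor Eno3 passed the test. By sex, 14 of the 20 other glycolysis genes measured were higher in females and 6 lower (median 0.178). The 22 glycolysis members leaned the other way, with 16 lower, and 62.5% of all genes were higher.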

How the data were processed

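RNA from 8 samples was hybridised to single-colour Agilent arrays (design 026655), 1 array per sample. Per the file headers, the deposited values are Feature Extraction 10.7.3.1 intensities, and the processed signal used here is a linear intensity with background already subtracted by the authors' scanner software. The deposited median signal and background intensities served only for the normexp alternative, in place of the mean signal that had been planned. Removed were 1377 control spots and, on each array, 94 to 216 outlier spots, and 0 spots were saturated. Signals were divided by the 75th percentile of their array and taken to log2. Of 39429 probes, 26412 received a symbol through RefSeq accessions (GRCm38.p6) and 13017 kept the name in the file. The brightest probe of each gene well above background on at least 2 arrays was used. Levels of different probes were not compared.

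The fit used limma 3.58.1, R 4.3.3 and data.table at version 1.17.8, with a mean for each group over all 8 arrays, 4 residual and 2.01 prior degrees of freedom and a threshold of 0.05 on adjusted p. The fit was tested on simulated data. The array number limits the precision. The genes, lists and the rule for naming genes were chosen with earlier results of these data known. All 38 genes are accounted for. A difference with its error is printed for members with an unadjusted p under 0.05 or no overlap by diet and for the isoform families. The rule allowed up to 5 other pathway genes per comparison by smallest p. Such genes are named for the diet comparison only. Differences of the remaining members were added with the values in view. Alternatives were background correction, normalization, filter, probe choice, replicate, scan day and slide blocks, and leaving out each array. The headers name the mm9 build, so array coordinates are not used. The promoter of Idh3a was not analysed here. Some genes of the wider pathway list are not reported here.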

Additional observations from a re-analysis of the deposited data

How the results depend on the processing

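No member passed an adjusted p of 0.05 in any comparison under any setting run. Of the results that answer a comparison, 300 kept their value within the limits set and 17 did not. Counts of genes past the adjusted threshold ranged, when 1 array was left out, from 0 to 397 for the diet in females (397 without the library labelled Control female 1 and 2 without Control female 2), from 0 to 2 for the diet by sex difference, from 0 to 3 for sex and from 0 to 2 for sex on the Western diet. Members without overlap by diet numbered 2 under quantile normalization and 0 to 2 when 1 array was left out. The share of all genes was not counted under quantile normalization. With 1 array left out it was counted only without the library labelled Control female 1. There 2.12% of all genes were higher and 3.86% lower on every Western array, and 0 members were. Members with an unadjusted sex p under 0.05 numbered 7 with normexp, 5 among genes well above background on all 8 arrays, and 1 to 6 when 1 array was left out. Of all genes, 749 of 21319 had an unadjusted sex p under 0.05 with normexp. Among genes well above background on all 8 arrays, 721 of 16942 had one. The counts with 1 array left out come from fits with 1 array in a group, so nothing is concluded from them. TCA members higher in Western females numbered 8 to 15 when 1 array was left out. Among named genes, 821 values kept direction and side and 75 changed sign, all of genes that passed no adjusted threshold. The diet difference changed sign with normexp for Aldoa (0.031), Fh1 (0.000), Idh3b (-0.007), Pfkl (0.005), Pgam1 (0.043), Sucla2 (0.011) and Suclg1 (0.036), and under quantile normalization for Gapdh (-0.024) and Pgam1 (0.004). With the mean of all kept probes it did so for Gapdh (-0.214) and Pfkfb4 (-0.106). With scan day as a block it did so for Aldoa (0.031), Idh3a (0.036), Pfkl (0.153), Pgam1 (0.078) and Sucla2 (0.023). With slide as a block it did so for Aldoa (0.005), Dld (-0.029), Gapdh (-0.032), Hk2 (0.141), Idh3a (0.007), Mdh1 (-0.088), Pfkfb4 (-0.012), Pfkl (0.145) and Pgam1 (0.017). When 1 array was left out, diet differences that changed sign ran from -0.03 to 0.279 for Aco1, -0.207 to 0.147 for Aldoa, -0.196 to 0.245 for Aldoc, -0.224 to 0.032 for Cs, -0.048 to 0.079 for Dld, -0.064 to 0.054 for Fh1, -0.149 to 0.182 for Gapdh, -0.216 to 0.015 for Gpi1 and -0.66 to 0.219 for Hk2. They ran from -0.08 to 0.073 for Idh3a, -0.034 to 0.112 for Idh3b, -0.242 to 0.005 for Ldha, -1.339 to 0.307 for Ldhb, -0.033 to 0.269 for Mdh1, -0.548 to 0.464 for Pfkl, -0.215 to 0.215 for Pgam1 and -0.341 to 0.055 for Pgk1. They ran from -0.495 to 0.781 for Slc16a3, -0.142 to 0.095 for Sucla2, -0.052 to 0.012 for Suclg1, -0.147 to 0.205 for Suclg2 and -0.313 to 0.012 for Tpi1. The sex difference of Ldhb ran from -1.401 to 0.245, and without Control male 1, which held its one high value, it was 0.245 for sex and 0.307 for diet. For the other moves the cause was not tested.

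The main fit did not pair the samples by replicate number. Replicate number and slide went together, except for Western male 2. Correlations of same-numbered arrays between groups ran from -0.12 to 0.35. They were 0.35 between the male groups and 0.18 between the female groups. With the replicate block, 1036 genes had an unadjusted diet p under 0.05 (927 without it) and 0 an adjusted one, and Pkm differed by -0.492. Each group has only 2 arrays, so differences inside the printed intervals could not be seen.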
